A study of Mus musculus with 6 samples.

Results

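The SALL and MEF2 transcription factors were followed in microglia, the resident macrophages of the brain, sorted from mouse brain in a group labelled WT (wild type) and a group labelled IRF8KO, for loss of the transcription factor IRF8. The set was given by name and held 7 genes, Sall1, Sall2, Sall3, Sall4, Mef2a, Mef2c and Mef2d, out of 49585 genes listed in the files. Of these, 6 were among the 11041 genes that passed a filter on low counts, and Sall4 was not. Each group had 3 libraries, and by the labels every library came from the brain of a male mouse aged 3 months, with no treatment. The labels give no more on the strain, the allele, the controls' breeding or how the mutation was made, so nothing further is known here of IRF8KO as a model. RNA of sorted cells was copied with a template-switching low-input kit and counted per gene.

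SALL proteins are zinc-finger transcription factors whose N-terminal end recruits the NuRD corepressor complex, a chromatin remodeller joined to histone deacetylases. In the adult brain Sall1 is known among macrophages as a marker of microglia, where it is switched on under TGF-beta and SMAD signalling and holds the cells in their resting state. MEF2 proteins are MADS-box factors that bind an AT-rich element, are activated by p38 and ERK5 kinases and by calcium signals, and are held back by class IIa histone deacetylases. Mef2a and Mef2c belong to the microglial set of regulators, and Mef2c is known to restrain inflammatory responses in these cells.

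Gene counts ranged from 3.66 to 11.1 M per library (M as in CPM and Mb). Apoe alone made up 33.7%, 25.5% and 28% of gene counts in IRF8KO replicates 1, 2 and 3. In WT replicates 1, 2 and 3 it made up 0.224%, 0.154% and 0.324%. Library size alone takes no account of this, so its values are read against the median of all genes on that scaling. Values below are counts per M after TMM scaling (CPM) unless another scale is named. The targeted gene did not separate the groups: Irf8 had 795, 851 and 1403 CPM in WT replicates 1, 2 and 3 and 743, 650 and 850 CPM in IRF8KO replicates 1, 2 and 3. Its log2 fold change was −0.44 (adjusted p = 0.368, edgeR), and with scaling by library size alone, where the median of all genes was −0.61, it was −0.90 and called (0.00763). A count over a whole gene does not tell a full transcript from a shortened one, so every direction below rests on the labels, and IRF8KO means the libraries labelled so. WT replicate 3 stood apart from WT replicates 1 and 2. Its log2 difference from them rose with the GC content of genes (Spearman correlation 0.615 over 11034 genes, which are not independent replicates). The difference between the IRF8KO and WT means also rose with GC content, with a correlation of 0.276 over the same genes. Fewer cells of a type and less RNA per cell cannot be told apart in these bulk libraries.

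Among the 6 tested members, 2 were called lower in IRF8KO, Sall1 and Mef2a, and none higher. Calls are at a Benjamini-Hochberg adjusted p under 0.05 over all tested genes in edgeR's quasi-likelihood test. Of all tested genes 19.1% were called, 9.46% lower and 9.64% higher. The 3 values of one group lay apart from the 3 of the other for Sall1, Mef2a and Mef2d, 3 of 6 tested members, against 37.9% of all tested genes. The median log2 fold change was −0.72 over the 6 members, or the same with Sall1 placed at its bound, and −0.11 over all tested genes.

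Sall1 was lost altogether from the counts. This gene (ENSMUSG00000031665, GRCm38, chromosome 8, 89027235 to 89044162, minus strand) had 737, 1797 and 370 counts in WT replicates 1, 2 and 3 and 0 counts in each of the 3 IRF8KO libraries. In CPM the WT values were 143, 127 and 51.0, with a mean of 107 ± 49.3 (SD, n = 3). Every WT library was far above the floor of the IRF8KO libraries, and WT replicate 3 was the lowest of the WT libraries. A count of 0 allows up to 3 counts, which is 0.482, 0.269 and 0.325 CPM in IRF8KO replicates 1, 2 and 3. With counts summed over each group, 2904 in WT against a floor of 3 in IRF8KO, Sall1 was at least 971-fold lower. This bound covers counting error, not the spread between libraries, and 1797 of the WT counts came from replicate 2. The call had an adjusted p of 1.26e-05 in edgeR's quasi-likelihood test (Benjamini-Hochberg), which does not test the bound. No exon of Sall1 overlaps another annotated gene, so the stranded counts of IRF8KO, also 0, follow from the unstranded count.

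**Figure D1:**
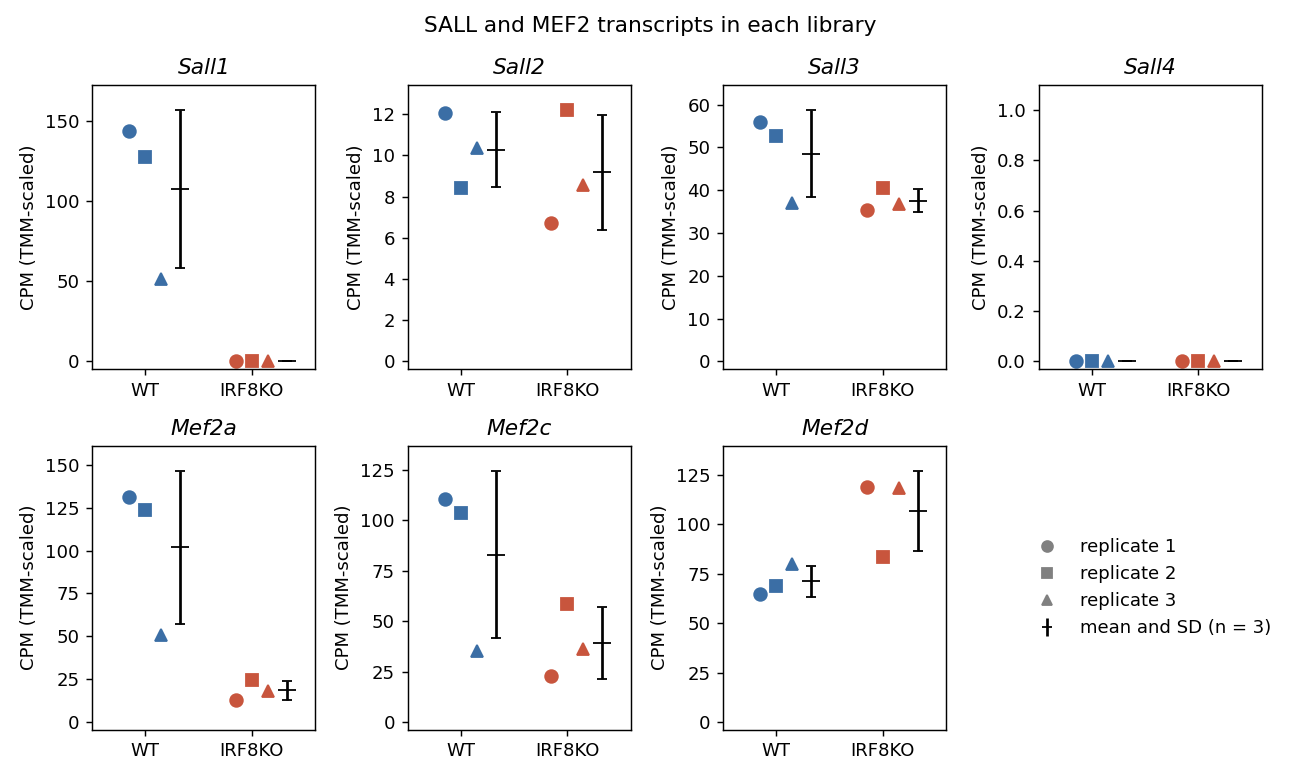
CPM of each SALL and MEF2 gene (vertical axes, linear, each panel with its own range) in the 3 WT libraries (blue) and 3 IRF8KO libraries (red); symbols mark replicates 1 to 3 and the bar at the right of each group is the mean with its SD. Sall1 is at 0 in all IRF8KO libraries, Mef2a is lower in all of them, the groups overlap for Sall2, Sall3 and Mef2c, and Sall4 is at 0 throughout.

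The other SALL genes did not share this loss. Sall3 (ENSMUSG00000024565, GRCm38, chromosome 18, 80966376 to 80986771, minus strand), the next most abundant of the family in WT, had 56.0, 52.6 and 36.9 CPM in WT and 35.3, 40.6 and 36.8 CPM in IRF8KO. WT replicate 3 lay among the IRF8KO values while WT replicates 1 and 2 were higher. The fold of IRF8KO over WT was 0.774 with a 95% interval of 0.506 to 1.18, not a called change (adjusted p = 0.387 in edgeR's quasi-likelihood test). Without WT replicate 3 the interval of this fold was 0.505 to 1.01 around 0.713, and edgeR's adjusted p was 0.117. Sall2 (ENSMUSG00000049532, GRCm38, chromosome 14, 52311172 to 52328762, minus strand), known for roles in neural and growth control, was low in both groups. It had 12.1, 8.43 and 10.3 CPM in WT and 6.74, 12.2 and 8.57 CPM in IRF8KO, with the groups interleaved. Its fold was 0.898 with an interval of 0.465 to 1.74 (adjusted p = 0.838, edgeR). Sall4 (ENSMUSG00000027547, GRCm38, chromosome 2, 168748332 to 168767943, minus strand), a factor of embryonic stem cells, had 0 counts in all 6 libraries, which allows between 0.212 and 0.584 CPM in a single library.

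Of the 3 MEF2 genes, 1 was called, Mef2a, and it was lower in IRF8KO. Mef2a (ENSMUSG00000030557, GRCm38, chromosome 7, 67231163 to 67372858, minus strand) had 131, 124 and 50.6 CPM in WT and 13.2, 24.4 and 18.1 CPM in IRF8KO. All IRF8KO values lay under the lowest WT value, that of replicate 3. Its mean fell from 102 ± 44.6 to 18.6 ± 5.64 CPM (SD, n = 3). The log2 fold change was −2.45 (SE 0.40), a fold of 0.183 with a 95% interval of 0.1 to 0.334, and the adjusted p was 0.00144 in edgeR's quasi-likelihood test. The call was kept in each fit that left out 1 library. Lysmd4, on the opposite strand, shares 2.06% of the exonic length of Mef2a.

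Mef2c (ENSMUSG00000005583, GRCm38, chromosome 13, 83504034 to 83667080, plus strand) had 110, 103 and 35.3 CPM in WT and 23.0, 58.5 and 36.4 CPM in IRF8KO. WT replicate 3 lay inside the range of IRF8KO, while WT replicates 1 and 2 were above it. The log2 fold change was −1.07 (SE 0.44), a fold of 0.475 with a 95% interval of 0.243 to 0.930, and it missed the threshold (adjusted p = 0.112 in edgeR's quasi-likelihood test). Without WT replicate 3 it became a called decrease of −1.37 (adjusted p = 0.015, edgeR).

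Mef2d (ENSMUSG00000001419, GRCm38, chromosome 3, 88142372 to 88172086, plus strand) had the opposite sign. It had 64.8, 68.6 and 79.7 CPM in WT and 119, 83.4 and 118 CPM in IRF8KO, with every IRF8KO value above every WT value. The fold was 1.5 with a 95% interval of 0.996 to 2.26, not called (adjusted p = 0.153 in edgeR's quasi-likelihood test). Without WT replicate 3 it was a called increase, with a fold of 1.63 and an adjusted p of 0.0256. With scaling by library size alone the log2 fold change of Mef2d was 0.07, against that median of −0.61. Of the MADS-box relatives outside the set, Mef2b had 0 counts in all 6 libraries, and Srf, the serum response factor, had 6.56 ± 2.21 CPM in WT and 7.94 ± 1.47 CPM in IRF8KO, with overlapping groups (SD, n = 3).

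**Figure D2:**
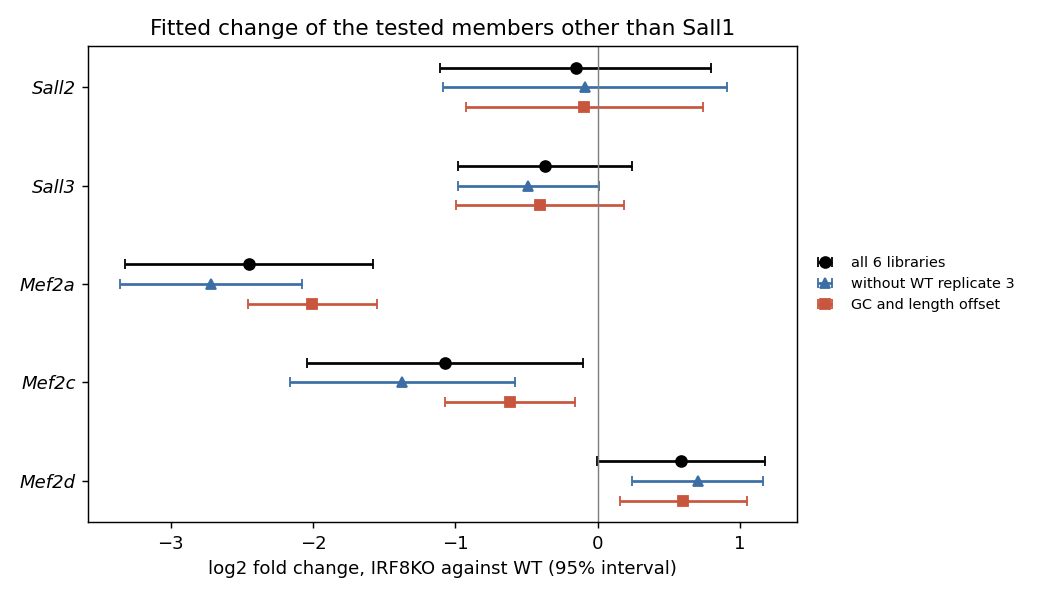
Fitted log2 fold change of IRF8KO against WT (horizontal axis) with its 95% interval for Sall2, Sall3, Mef2a, Mef2c and Mef2d, from all 6 libraries (black circles), without WT replicate 3 (blue triangles) and with an offset for GC content and length (red squares). The interval of Mef2a lies below 0 in all 3 fits, and those of Sall2 span 0 in all 3.

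The spread of Mef2a and Mef2c among WT libraries narrowed when GC content and exonic length were taken into account. These are the most AT-rich members, with a GC content of 42.0% and 40.8% over their longest transcript, against 51.6% to 55.0% for the other members. After a smooth correction of each library for GC content and length, Mef2a had 79.9, 78.4 and 89.4 CPM in WT and 19.9, 19.98 and 21.7 CPM in IRF8KO. Corrected Mef2c had 65.6, 64.2 and 64.3 CPM in WT and 35.5, 46.7 and 44.3 CPM in IRF8KO, so that its groups no longer overlapped. Corrected Mef2d had 70.4, 73.2 and 67.3 CPM in WT and 109, 89.8 and 121 CPM in IRF8KO. WT replicate 3 thus came level with WT replicates 1 and 2 for all MEF2 members, whereas for Sall1 it stayed apart at 49.5 CPM against 139 and 122.

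With this offset in edgeR the folds of IRF8KO over WT were 0.249 for Mef2a (95% interval 0.182 to 0.341), 0.654 for Mef2c (0.477 to 0.896) and 1.52 for Mef2d (1.12 to 2.06). The adjusted p was 1.44e-04 for Mef2a, and Mef2c and Mef2d missed the threshold at 0.0562 and 0.0548 (edgeR's quasi-likelihood test, Benjamini-Hochberg). Sall3 had 59.4, 55.7 and 33.6 CPM in WT and 32.9, 42.3 and 37.1 CPM in IRF8KO on this corrected scale, with overlap. Its adjusted p with the offset was 0.306 in the same edgeR test. Without WT replicate 3 and with the offset, a choice made after the values were seen, Sall3 and Mef2c had called decreases, with log2 fold changes of −0.66 and −0.67 and adjusted p of 0.0412 and 0.0315 in edgeR.

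**Figure D3:**
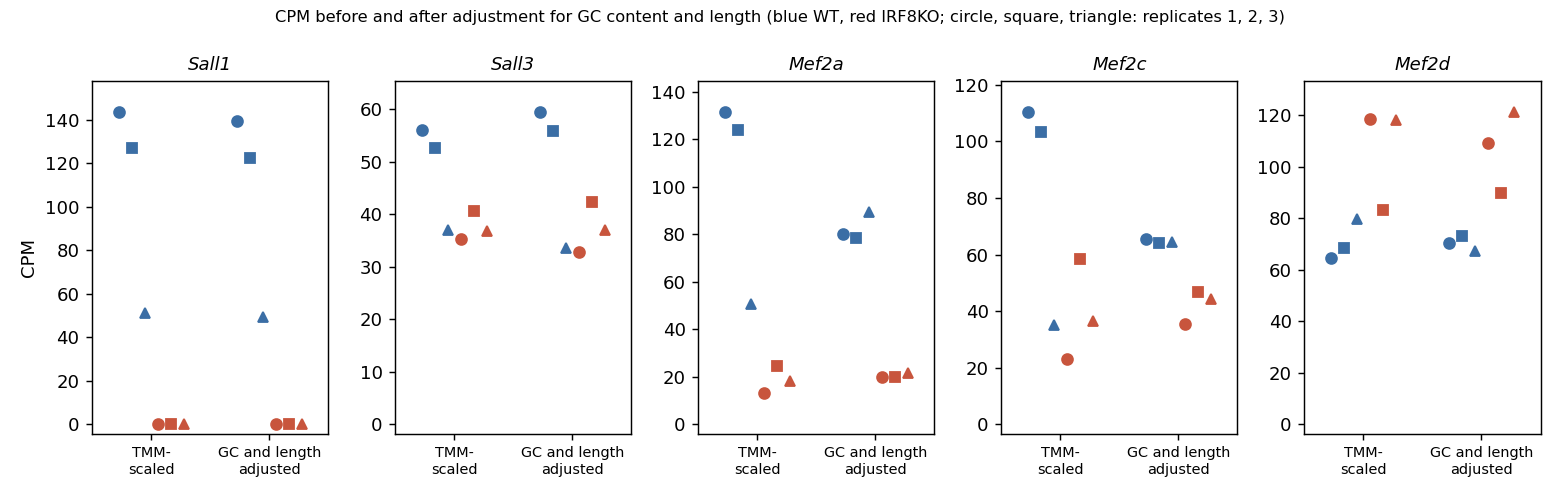
CPM (vertical axes, linear) of Sall1, Sall3, Mef2a, Mef2c and Mef2d in each library as TMM-scaled (left of each panel) and after correction for GC content and length (right); WT in blue, IRF8KO in red, symbols for replicates 1 to 3. WT replicate 3 (blue triangle) joins the other WT libraries for Mef2a and Mef2c after correction and stays below them for Sall1 and Sall3.

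Ratios between members of a family within a library do not depend on how libraries are scaled. They were taken from counts without the GC and length correction, so a GC trend of a library remains in them. This concerns pairs with Mef2d most, at a GC content of 55.0% against 42.0% for Mef2a and 40.8% for Mef2c. The log2 ratio of Mef2a to Mef2c counts was 0.25, 0.26 and 0.52 in WT and −0.80, −1.26 and −1.01 in IRF8KO. All WT libraries held more Mef2a than Mef2c counts and all IRF8KO libraries fewer, a shift of −1.37, with little spread inside either group. The log2 ratio of Mef2a to Mef2d was 1.02, 0.85 and −0.66 in WT and −3.17, −1.77 and −2.70 in IRF8KO, a shift of −2.95, again without overlap. For both pairs the exact two-sided permutation test gave p = 0.1, the smallest that 3 against 3 libraries allow, and 0.2 after Benjamini-Hochberg adjustment over the 4 pairs computed. The Mef2c to Mef2d ratio shifted by −1.59 with overlap (exact permutation p = 0.2, adjusted 0.267). The overlap was between WT replicate 3, at −1.175, and IRF8KO replicate 2, at −0.51. With the GC and length correction, WT replicate 3 had 64.3 CPM of Mef2c and 67.3 CPM of Mef2d, close to WT replicates 1 and 2. Leaving out 1 library gave shifts of the uncorrected Mef2c to Mef2d ratio from −2.21 (without WT replicate 3) to −1.16 (without IRF8KO replicate 1). The Sall2 to Sall3 ratio shifted by 0.16, with SDs of 0.40 in WT and 0.33 in IRF8KO (exact permutation p = 0.7, adjusted 0.7).

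**Figure D4:**
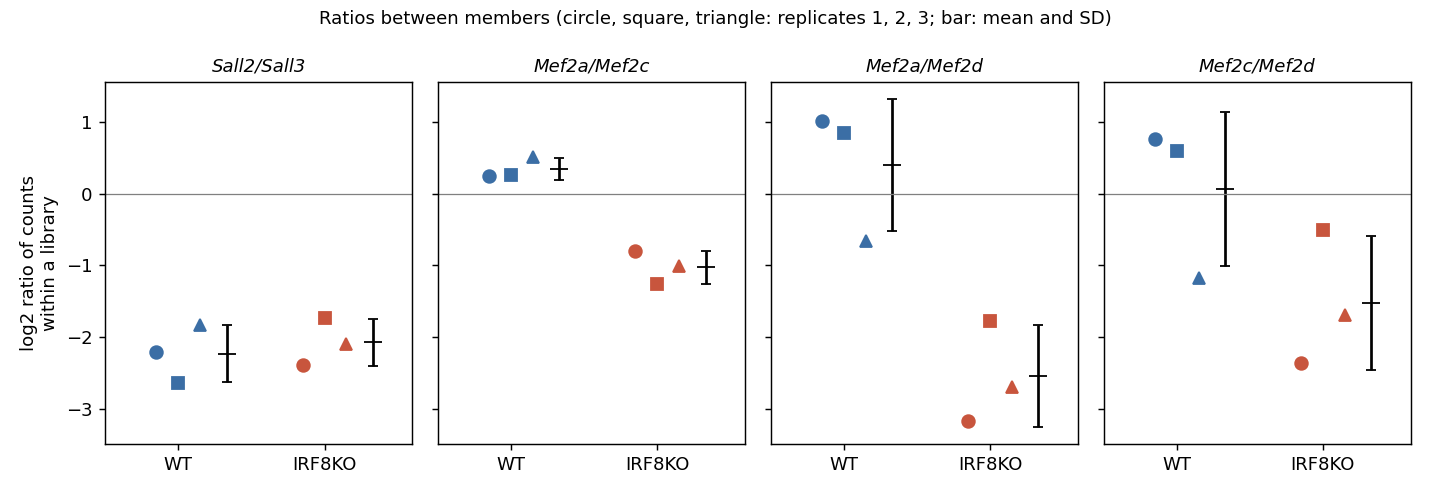
Log2 ratio of counts of the named gene pairs within each library (vertical axis), for WT (blue) and IRF8KO (red), symbols for replicates 1 to 3 and bars for the mean and SD. The Mef2a to Mef2c and Mef2a to Mef2d ratios are lower in all 3 IRF8KO libraries than in any WT library.

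Levels of different genes were compared per length, as CPM per kb of merged exons. In WT, Sall1 came first at 20.4 ± 9.37, followed by Mef2d at 11.9 ± 1.29, Mef2a at 6.94 ± 3.04, Sall3 at 6.49 ± 1.36, Mef2c at 5.28 ± 2.64 and Sall2 at 1.89 ± 0.335 (SD, n = 3). The gap between Sall1 and Mef2d was smaller than the SD of Sall1, and in WT replicate 3 Sall1 was below Mef2d (9.69 against 13.3). Mef2a, Sall3 and Mef2c differed from one another by less than their SDs. In IRF8KO the order was Mef2d at 17.8 ± 3.37, Sall3 at 5.02 ± 0.362, Mef2c at 2.501 ± 1.14, Sall2 at 1.69 ± 0.512 and Mef2a at 1.26 ± 0.384, with Sall1 and Sall4 at 0. Here Mef2c and Sall2, and likewise Sall2 and Mef2a, differed by less than the larger SD of the pair. The place of Mef2a and Mef2c depended on the length used: per kb of the longest transcript, the WT means were 18.4 ± 8.05 for Mef2a, 13.2 ± 6.61 for Mef2c and 13.15 ± 1.43 for Mef2d.

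The make-up of each family differed between the groups. Sall1 gave 73.7%, 73.8% and 58.6% of the summed SALL level per kb in WT, and Sall3 gave 79.2%, 70.7% and 75.7% in IRF8KO, where Sall2 made up the rest. Mef2d gave 40.4%, 43.3% and 70.1% of the MEF2 level per kb of merged exons in WT and 89.4%, 72.1% and 84.7% in IRF8KO. Per kb of the longest transcript these shares of Mef2d were 22.5%, 24.7% and 50% in WT and 78.4%, 52.9% and 70.7% in IRF8KO. On either length Mef2d had its largest WT share in replicate 3, and every IRF8KO share was larger than every WT share. These shares were not corrected for GC content. On the corrected scale above, WT replicate 3 was level with WT replicates 1 and 2 for Mef2a, Mef2c and Mef2d.

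**Figure D5:**
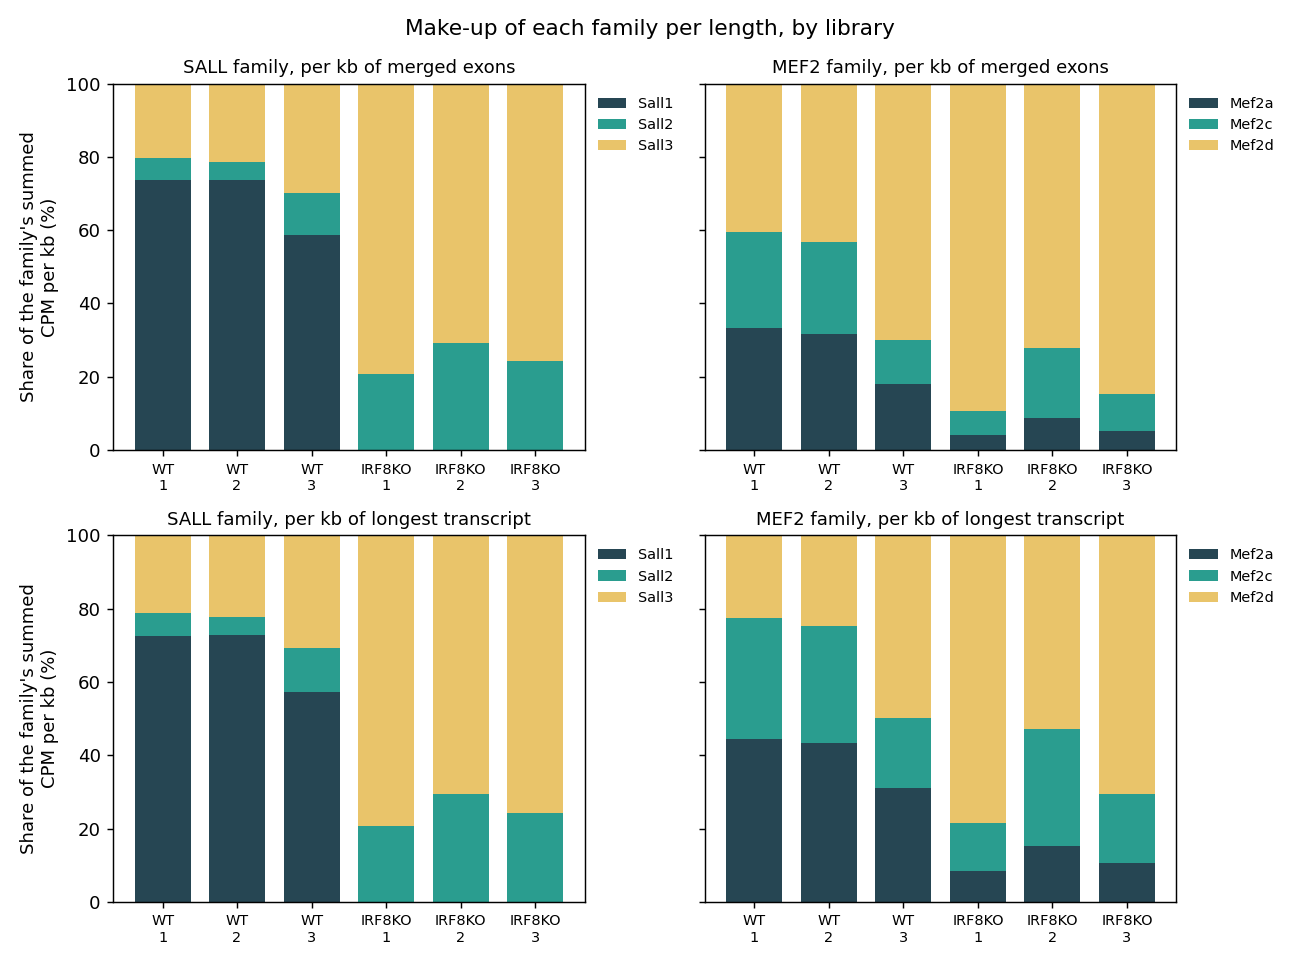
Share of each family's summed CPM per kb (vertical axis, percent) that each member gave in each of the 6 libraries, for the SALL family (left) and the MEF2 family (right), per kb of merged exons (top) and of the longest transcript (bottom). Sall1 is the main SALL member in WT and missing in IRF8KO, where Sall3 and Sall2 share the total; Mef2d is the main MEF2 member in all IRF8KO libraries.

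RefSeq promoter sequences (GRCm38.p6) were at hand for 5 of the 7 members, at 10 start sites: Sall1, Sall2, Mef2a, Mef2c and Mef2d. The 250 bases upstream of the first start site are shown for Sall1 and Mef2a, the called members, and for Mef2c and Mef2d, which were not called. They run 5′ to 3′ on the gene's strand, and capitals mark a match to a searched motif.
Sall1, chr8:89044163-89044412, minus strand: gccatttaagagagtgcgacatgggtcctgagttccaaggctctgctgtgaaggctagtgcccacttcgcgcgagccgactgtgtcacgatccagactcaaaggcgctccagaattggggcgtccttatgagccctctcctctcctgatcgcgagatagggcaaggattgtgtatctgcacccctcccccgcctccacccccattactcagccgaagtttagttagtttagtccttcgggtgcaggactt
Mef2a, chr7:67372859-67373108, minus strand: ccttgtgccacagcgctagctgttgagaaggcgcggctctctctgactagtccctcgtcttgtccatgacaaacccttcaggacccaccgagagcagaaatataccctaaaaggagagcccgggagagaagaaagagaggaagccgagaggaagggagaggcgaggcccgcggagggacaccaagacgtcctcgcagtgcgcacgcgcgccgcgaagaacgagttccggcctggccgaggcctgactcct
Mef2c, chr13:83503784-83504033, plus strand: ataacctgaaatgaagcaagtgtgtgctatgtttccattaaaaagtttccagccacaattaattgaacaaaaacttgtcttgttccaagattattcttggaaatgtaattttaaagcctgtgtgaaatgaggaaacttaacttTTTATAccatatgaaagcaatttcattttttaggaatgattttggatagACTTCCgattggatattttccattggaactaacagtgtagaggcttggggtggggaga
Mef2d, chr3:88142122-88142371, plus strand: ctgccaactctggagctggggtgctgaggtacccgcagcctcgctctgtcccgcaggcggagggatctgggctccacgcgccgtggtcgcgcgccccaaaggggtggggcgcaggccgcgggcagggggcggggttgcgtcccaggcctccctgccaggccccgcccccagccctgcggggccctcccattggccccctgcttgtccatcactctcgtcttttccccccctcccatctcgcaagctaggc

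These windows differed in base composition. The upstream bases of Sall1, Mef2a and Mef2d had a GC content of 56.4%, 61.6% and 73.2% and held 13, 21 and 19 CpG dinucleotides, and those of Mef2c had 33.6% and 1, where the medians over 32851 promoters were 52.4% and 6. Both strands were searched for 7 letter strings. Neither the composite PU.1-IRF element GGAANNGAAA, found in 2.30% of all promoters, nor the paired interferon half-sites GAAANNGAAA (2.98%) occurred in any of the 10 windows. The same held for the MEF2 core CTANNNNTAG (3.20%), the SMAD palindrome GTCTAGAC (0.167%) and the SMAD box CAGACA (17.1%). The PU.1 core GGAAGT, in 19.7% of all promoters, matched on the minus strand of the Mef2c window shown, 58 bases before the start site, and once at the third RefSeq start of Sall1. The string TATAAA (12.4%) matched in the same Mef2c window on the minus strand, in a further Mef2c window and in 1 window of Sall2.

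The genes whose profile over the 6 libraries was most like that of a member were sought by Pearson correlation of log2 CPM, over 6040 other tested genes whose mean reached 10 CPM. With libraries in 2 groups such a correlation takes in the difference between the groups, and 196 genes exceeded 0.95 with Sall1. The closest to Sall1 were Npnt (0.999), Upk1b (0.998), P3h2 (0.998) and Naaa (0.997), which encode nephronectin, a uroplakin of the tetraspanin family, a prolyl hydroxylase and a lysosomal amidase. Npnt, Upk1b and P3h2 had 0 counts in every IRF8KO library as well, and Naaa fell from 28.7 ± 11.6 to 0.813 ± 0.131 CPM (SD, n = 3). A choice by likeness to Sall1 favours such genes. Of all called genes, 30 had 0 counts in all IRF8KO libraries and 40 had 0 counts in all WT libraries. The closest to Mef2a were Rassf4 (0.998), Stx7 (0.998), Picalm (0.996) and Iars2 (0.995), among 258 genes over 0.95. Picalm, a clathrin assembly protein gene, had 48.3, 49.6 and 17.9 CPM in WT and 4.17, 6.64 and 4.77 CPM in IRF8KO, the same low WT replicate 3 as Mef2a. For Mef2c the closest was Ik (0.997), for Mef2d Ppie (0.997), for Sall3 Git2 (0.996) and for Sall2 Ampd3 (0.935).

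The nearest tested genes on either side of each member, a choice made after values were seen, were called in 2 of 14 cases, against 19.1% of all tested genes. These were Atp9a beside Sall4, at 10.5 ± 3.85 CPM in WT and 2.94 ± 1.75 CPM in IRF8KO (adjusted p = 0.0479, edgeR), and Cetn3, 1710 kb from Mef2c, at 5.91 ± 1.84 and 0.929 ± 0.938 CPM (adjusted p = 0.0431). Cyld, which lies 275 kb from Sall1, had 8.38 ± 4.40 CPM in WT and 3.96 ± 2.59 CPM in IRF8KO, with an adjusted p of 0.289 in edgeR. Beside Mef2a, Lysmd4 had 12.5 ± 3.34 and 11.2 ± 3.33 CPM and Lrrc28 had 6.25 ± 3.29 and 6.66 ± 2.90 CPM (SD, WT then IRF8KO). Neither Lysmd4 nor Lrrc28 was called, with adjusted p of 0.818 and 0.944 in edgeR.

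Genes that work with the members were described by list, through their counts of calls beside the 9.46% lower and 9.64% higher among all tested genes. Of the NuRD corepressor complex, 14 of 15 listed genes were tested, with 1 called higher and none lower, and a median log2 fold change of −0.23. The gene called was Chd5, a NuRD remodeller subunit best known from neurons, which rose from 0.319 ± 0.201 to 8.09 ± 0.516 CPM (SD, n = 3). Neuronal markers moved with it: the 10 listed summed to between 0.637 and 12.7 CPM in WT and between 32.6 and 51.9 CPM in IRF8KO, with 3 of 4 tested called higher. Of these, Snhg11 lost its call in 6 of 19 alternatives (adjusted p up to 0.221, with DESeq2) and Rbfox3 without IRF8KO replicate 3 (0.0506, edgeR). Their part in the rise of Chd5 was not tested. Mta2, another NuRD subunit, had 195 ± 33.2 CPM in WT and 116 ± 43.4 CPM in IRF8KO and was not called in edgeR (adjusted p = 0.124), but it was with the GC and length offset (0.044) and with library size alone (0.00217). With library size alone its log2 fold change was −1.28, against a median of −0.61 over all genes.

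Of the cofactors and kinases of MEF2, 22 of 23 listed genes were tested, 2 were called higher, 1 lower, and the median log2 fold change was 0.08. Of the 4 class IIa histone deacetylases, which bind MEF2 and repress its targets, Hdac5 was called lower, Hdac7 higher, and Hdac4 and Hdac9 were not called. Hdac5 had 113, 122 and 264 CPM in WT and 90.9, 47.7 and 48.3 CPM in IRF8KO, a log2 fold change of −1.42 (adjusted p = 0.0262, edgeR). That call was lost without IRF8KO replicate 2 or 3, at adjusted p of 0.086 and 0.156. Hdac7 had 1.36, 0.566 and 0.965 CPM in WT and 9.95, 9.60 and 9.33 CPM in IRF8KO, a log2 fold change of 3.36 (adjusted p = 0.0024, edgeR). Sik3, a kinase that acts on these deacetylases, rose from 9.44 ± 1.603 to 24.1 ± 7.50 CPM (SD, n = 3; adjusted p = 0.0287, edgeR). The call of Sik3 was lost without WT replicate 1 or 2 or IRF8KO replicate 1 or 2, with adjusted p of 0.0907, 0.112, 0.0841 and 0.0990 in edgeR, and with scaling by library size alone (0.159). Mapk14, which encodes the p38 kinase, had 274 ± 36.1 CPM in WT and 225 ± 31.6 CPM in IRF8KO and was not called in edgeR (adjusted p = 0.503), except with library size alone (0.0139). There its log2 fold change was −0.79, against a median of −0.61 over all genes.

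Of 7 genes known as MEF2 targets, 5 were tested, 3 were called lower and none higher, with a median log2 fold change of −2.56. They were Klf2, Jun and Klf6, with log2 fold changes of −2.87, −4.14 and −2.56 and adjusted p of 0.00584, 0.00653 and 0.023 in edgeR. Jun had 736, 1545 and 49.8 CPM in WT and 29.5, 48.2 and 54.4 CPM in IRF8KO. WT replicate 3 lay within the IRF8KO range, so the difference in Jun was carried by WT replicates 1 and 2. The same held for Klf6, with 134, 199 and 26.2 CPM in WT and 8.19, 39.75 and 12.6 CPM in IRF8KO. Klf2 did not overlap but was also lowest of WT in replicate 3, with 118.5, 138.8 and 21.6 CPM against 15.25, 16.15 and 6.72 CPM. Immediate early genes, which respond to cell handling, moved with this list: their 8 listed genes summed to between 660 and 8440 CPM in WT and between 618 and 850 CPM in IRF8KO, with 6 of 7 tested called lower. Of these, Junb lost its call in 5 of 20 alternatives (without WT replicate 2, or any 1 of the IRF8KO replicates, and with the replicate block and offset together) and Btg2 in 4 (without WT replicate 2, or IRF8KO replicate 1 or 3, and in limma-voom). Both were lowest of WT in replicate 3. Btg2 had 871, 1732 and 114 CPM in WT and 134, 149 and 99.3 CPM in IRF8KO, with overlap. Junb had 886, 1798 and 391 CPM in WT and 329, 243 and 376 CPM in IRF8KO. The part of immediate early genes in the change of the target list was not tested. Klf2 and Jun each lost their call without IRF8KO replicate 3 (adjusted p of 0.0551 and 0.0547, edgeR), and Klf6 without WT replicate 2 or IRF8KO replicate 1 or 3 (0.0725, 0.105 and 0.143). With the GC and length offset the log2 fold changes of Klf6 and Klf2 were −1.74 and −3.51 (adjusted p = 0.0292 and 0.0102, edgeR). Jun was at −3.16 without WT replicate 2 and Klf6 at −3.51 without IRF8KO replicate 2.

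The TGF-beta and SMAD pathway, known to act upstream of Sall1, had 12 of 13 listed genes tested, 3 called lower and none higher, and a median log2 fold change of −1.01. Both receptor chains were among them. Tgfbr1 had 440, 405 and 114 CPM in WT and 74.3, 120 and 59.9 CPM in IRF8KO, where WT replicate 3 overlapped IRF8KO replicate 2. Tgfbr2 had 227, 228 and 220 CPM in WT and 84.9, 140 and 111 CPM in IRF8KO, without overlap. Smad7, an inhibitor of the pathway that the pathway itself induces, had 11.1, 11.4 and 5.93 CPM in WT and 1.77, 2.60 and 0.542 CPM in IRF8KO. In edgeR these genes had log2 fold changes of −1.91, −1.01 and −2.52 (adjusted p = 0.0147, 0.0267 and 0.0187). With the GC and length offset the log2 fold change of Tgfbr1 was −0.93 (adjusted p = 0.0189, edgeR). Each call was lost without IRF8KO replicate 1 or 3, with adjusted p between 0.064 and 0.144 in edgeR, and those of Tgfbr2 and Smad7 also without WT replicate 1 or 2 (0.0643 to 0.0902).

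Genes of the resting state, which Sall1 is known to uphold, were called lower more often than higher. Of 15 homeostatic genes tested, 7 were called lower and 2 higher, with a median log2 fold change of −1.04. Those with the smallest p-values were Adgrg1, Slc2a5, P2ry13 and Cx3cr1, with log2 fold changes of −4.30, −2.94, −2.52 and −2.16. The 2 called higher, named after their values were seen, were Fcrls and Gpr84. Of 12 genes restrained in resting microglia, 10 were tested, 5 were called higher and 1 lower (Axl, likewise named after its values were seen), with a median of 1.02. The 4 increases with the smallest p-values were those of Cst7, Apoe, Clec7a and Lyz2, with log2 fold changes of 5.49, 7.41, 3.23 and 1.61, and the fifth gene called higher was Gpnmb. Cst7 was at 4.57 with the GC and length offset and Apoe at 8.03 without WT replicate 3. Lyz2 lost its call without IRF8KO replicate 3 (log2 fold change 1.55, adjusted p = 0.0596, edgeR) and with the GC and length offset (0.98, adjusted p = 0.0694). Markers of border-associated macrophages moved with both lists, with 8 of 8 tested called higher and sums of 612 to 835 CPM in WT and 3820 to 5040 CPM in IRF8KO, and their part in these changes was not tested. Of 15 other microglial transcription factors, Irf8 among them, 3 were called higher (Bhlhe40, Cebpb and Tfec) and Batf3 was among those called lower. Spi1, which encodes PU.1, had 506 ± 153 CPM in WT and 427 ± 61.5 CPM in IRF8KO, with overlap (SD, n = 3). It was called lower with library size alone (log2 fold change −0.71, adjusted p = 0.0133 in edgeR), where the median of all genes was −0.61.

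Markers of cells outside the labelled type were measured beside the loss of Sall1. All 10 microglial markers were tested, with a sum of 53300 to 101000 CPM in WT and 39500 to 56800 CPM in IRF8KO, and 4 were called lower. Csf1r, the receptor on which microglia depend, had 22940 ± 8325 CPM in WT and 14990 ± 3792 CPM in IRF8KO. It was not called in edgeR (adjusted p = 0.338), except with library size alone (0.00395). There its log2 fold change was −1.08, against a median of −0.61 over all genes. The 10 markers of border-associated macrophages, which do not express Sall1, summed to 612 to 835 CPM in WT and 3820 to 5040 CPM in IRF8KO. All 8 that were tested were called higher, Cd163 and F13a1 had 0 counts in WT, and Lyve1, one of their defining genes, had 0 counts in all 6 libraries. Their part in the change of Sall1 and Mef2a was not tested. Lymphocyte markers, of interest because B cells express Mef2c, summed to 519 to 859 CPM in WT and 29.6 to 40.9 CPM in IRF8KO, nearly all of it Ighm and Cd79b, while Ms4a1, Pax5, Cd3e and Cd3g had 0 counts throughout. Endothelial markers summed to 18.6 to 30.2 CPM in WT and 1.77 to 9.98 CPM in IRF8KO. Astrocyte markers summed to 174 to 213 and 118 to 204 CPM. Slc1a3 fell from 152 ± 58.5 to 8.76 ± 6.54 CPM (SD, n = 3), while Aldoc, not called, had 17.3, 5.66 and 78.4 CPM in WT and 144, 86.5 and 88.5 CPM in IRF8KO. Of the 6 astrocyte markers tested, 4 were called higher (Gfap, Aldh1l1, Slc1a2 and S100b) and 1 lower, with a median log2 fold change of 2.15. Markers of oligodendrocytes summed to 128 to 425 CPM in WT and 449 to 630 CPM in IRF8KO, those of monocytes to 0.276 to 1.42 and 0.321 to 42.1 CPM, those of neutrophils to at most 0.195 CPM and 2.06 to 329 CPM, and those of mural cells to at most 2.92 and 7.54 CPM. The abundant monocyte and neutrophil markers stood out in IRF8KO replicate 2 alone, where S100a8 had 121, Ngp 79.2 and Chil3 34.6 CPM, against at most 0.803 CPM in the other IRF8KO libraries. The 1 neutrophil marker tested, Cxcr2, had 0 counts in WT and was called higher, without overlap between the groups. Whether these cells bear on the MEF2 values was not tested.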

How the data were processed

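The authors deposited raw counts per gene for each library, in the layout of STAR's gene counts: 4 summary lines, then per gene an unstranded count and 2 stranded ones. The submitters' processing notes name bcl2fastq, STAR 2.5.2b, Picard 2.17.11, Subread, featureCounts and mm10, with no role or order; the annotation release is not given in the sources used here. Per the labels' protocols the library kit keeps no strand and no molecular identifiers, so the unstranded column entered the tests and floors cover counting error only. Each deposited file holds 1 library; counts were summed over a group for the fold bound of Sall1 alone.

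Of the 49585 gene IDs, 49326 were matched to GENCODE M21 (GRCm38, the assembly behind mm10) for symbols, positions, exonic length and GC content. Summary lines stayed out of library sizes; reads outside any gene made up 2.44% to 7.70% and reads on several genes 8.20% to 10.8% of uniquely mapped reads. The test was that of edgeR 4.0.16, run in R 4.3.3 (filterByExpr with minimum count 10, TMM, quasi-likelihood F test, genotype as the single term), with Benjamini-Hochberg adjustment over all 11041 tested genes. Scripts were tested on simulated data. Floors are 3 counts. Log2 CPM for correlations had a prior count of 2. The GC and length correction fitted, in each library, smooth terms of both with mgcv 1.9.3 and entered edgeR as an offset. It took no account of group, so it can also remove part of a group difference that runs with GC content or length. Alternatives were other scalings, filters and strand columns, DESeq2 1.42.0, limma-voom (limma 3.58.1), a replicate block and leaving out each library.

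Members and lists were chosen with earlier results of these data known. The rule for named genes took the members, Irf8, per list the 4 called genes with the smallest p-values and up to 2 abundant genes not called, the 4 closest profiles per member (members and Gm or Rik names left out) and the 2 most abundant markers per cell type. The text gives values for part of these. Some listed genes are not reported here. P-values measure the spread between 3 libraries a group, each from its own brain by the labels. No 2 libraries of a group agreed within sampling noise (chi-square per degree of freedom at least 9.14).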

Additional observations from a re-analysis of the deposited data

How the results depend on the processing

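Sall1 and Mef2a kept their direction and call in all 19 and 20 alternatives tried, where the largest adjusted p in edgeR, DESeq2 or limma-voom was 8.16e-04 for Sall1 and 0.0215 for Mef2a; the filter of at least 10 counts in every library cannot hold Sall1. Mef2c had a call without an expression filter (log2 fold change −1.06, adjusted p = 0.0177 in edgeR), Mef2c (−1.37) and Mef2d (0.70) had one without WT replicate 3, and Mef2c (−0.67) and Sall3 (−0.66) without it and with the GC and length offset, a fit added after seeing the data; the cause was not tested. Over fits that left out 1 library, the log2 fold change ran from −1.47 to −0.79 for Mef2c and from 0.51 to 0.74 for Mef2d. Sall2, from −0.41 to 0.035 in those fits, reversed without IRF8KO replicate 1 (0.035) and in the first stranded column (0.11). The Sall2 to Sall3 shift reversed in the second stranded column (−0.013) and, at −0.048 and −0.013, without WT replicate 2 and IRF8KO replicate 2, within a range of −0.048 to 0.35. Srf reversed with library size alone (−0.13) and Spi1 without WT replicate 3 (0.059).

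The count of called genes, 2109, ranged from 910 without IRF8KO replicate 3 to 4003 without WT replicate 3 (higher 524 to 2168, lower 386 to 1835), and was 3491 without WT replicate 3 and with the offset (1917 higher, 1574 lower). Library size alone gave 651 higher and 1908 lower calls, 25.4% higher against 50.5% with TMM. Per kb, longest-transcript levels were 18.4 and 3.35 for Mef2a and 13.2 and 6.26 for Mef2c in WT and IRF8KO; with library size alone Sall2 had 2.29, Sall3 8.06 and Mef2d 14.1 in WT and Sall3 4.30 in IRF8KO. A replicate block gave 2353 calls and changed no member's call (with the offset, 2239). The replicate numbers did not pair libraries: correlations of same-numbered libraries' deviations were −0.260, 0.328 and 0.114. Depth limits Sall4, at 0 counts and untested, and Sall2, at 42 to 136 counts per library.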
